A study of Mus musculus with 27 samples.

Results

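Integrins and CD44 are the receptors through which kidney cells hold on to the matrix around them. Expression of the genes for 9 of them, Cd44, Itgb1, Itgb6, Itgb8, Itgav, Itga2, Itga3, Itga5 and Itga6, was described in mouse kidneys after graded ischemia. The members were the rows of the deposited table with these gene symbols, 9 of 19392 genes, and each was above 0 FPKM in all 27 kidneys, so all 9 passed the filter on low values. C57BL/6 mice had the right kidney removed and the left renal pedicle clamped for 16, 18, 20, 22, 24, 26, 28 or 30 min on a platform that kept them at 37°C, and the left kidney was taken after 24 h of reperfusion. The control mice, 0 min, were labelled sham. The paper lists 0 min among the ischemia times of this surgery, but does not state separately whether the right kidney was removed in these mice. Each of the 9 ischemia times had 3 mice, which were separate wild-type animals. The whole kidney was sequenced, and the values are in FPKM, a read level corrected for transcript length and library size, so levels of different genes can be compared per length.

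An integrin is a pair of an alpha and a beta chain that spans the membrane, binds matrix outside the cell and links to actin through talin and other adaptors inside. The beta chain encoded by Itgb1 pairs with many alpha chains, whereas the chains of Itgb6 and Itgb8 pair with the alpha chain of Itgav and bind latent TGF-beta. CD44 is a receptor for hyaluronan, a large sugar polymer of the matrix. In tubular epithelium these receptors anchor cells to the basement membrane, and CD44 is known to be low in healthy tubules and higher after injury.

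The kidneys had the markers of their tissue. Umod, a gene of the thick ascending limb, lay between 1247 and 1405 FPKM in the sham kidneys, and Lrp2, the proximal tubule receptor megalin, between 156 and 169 FPKM. FPKM summed to between 512453 and 554036 per kidney, and between 16498 and 16904 genes were above 0. The table holds no read counts, and the depth of the libraries is therefore unknown. A kidney stood apart at 16 min: Havcr1, the injury marker KIM1, was at 35.1 FPKM in replicate 3 against 332 and 574 FPKM in replicates 1 and 2. Results for 16 min are therefore given with and without single kidneys where the call turns on them. Among the sham kidneys, replicate 3 held more Havcr1, 22.0 FPKM against 2.81 and 2.49 FPKM in replicates 1 and 2. It also held more Itga2, 0.48 FPKM against 0.08 and 0.10 FPKM. This kidney is 1 of the 3 controls of every comparison with sham. In these bulk samples, fewer cells of a type and less RNA per cell cannot be told apart.

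The promoters of the members that rose most and of those that fell are shown, since these genes moved in opposite directions at 30 min. RefSeq promoters (GRCm38.p6) of 300 bases, 250 before and 50 after the start base, were matched for 8 of the 9 members, 10 promoters in all. No entry was matched for Itga6. They are written 5′ to 3′ on the strand of the gene, with GGGCGG, or CCGCCC where the match lay on the other strand, in capitals. These letters are the core of the site of SP1, a factor of GC-rich promoters. The promoters lie at chr2:102901616-102901915 for Cd44, chr8:128685404-128685703 for Itgb1, chr11:95076665-95076964 and chr11:95069149-95069448 for the first and the second of Itga3, chr15:103366742-103367041 for Itga5, chr2:60722554-60722853 for the first of Itgb6 and chr12:119238227-119238526 for Itgb8. All of them lie on the minus strand except that of Itgb1.
Cd44: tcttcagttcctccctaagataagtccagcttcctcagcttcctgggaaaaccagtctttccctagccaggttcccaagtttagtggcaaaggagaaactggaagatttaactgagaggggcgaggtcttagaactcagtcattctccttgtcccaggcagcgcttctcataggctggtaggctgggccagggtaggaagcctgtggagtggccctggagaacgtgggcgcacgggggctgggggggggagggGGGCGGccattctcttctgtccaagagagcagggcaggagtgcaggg
Itgb1: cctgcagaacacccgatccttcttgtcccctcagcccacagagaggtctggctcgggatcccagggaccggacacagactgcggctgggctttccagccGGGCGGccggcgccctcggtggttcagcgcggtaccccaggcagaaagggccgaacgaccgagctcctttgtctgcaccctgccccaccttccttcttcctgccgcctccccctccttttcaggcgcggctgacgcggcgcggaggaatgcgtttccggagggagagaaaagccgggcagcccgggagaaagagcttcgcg
Itga3, promoter 1: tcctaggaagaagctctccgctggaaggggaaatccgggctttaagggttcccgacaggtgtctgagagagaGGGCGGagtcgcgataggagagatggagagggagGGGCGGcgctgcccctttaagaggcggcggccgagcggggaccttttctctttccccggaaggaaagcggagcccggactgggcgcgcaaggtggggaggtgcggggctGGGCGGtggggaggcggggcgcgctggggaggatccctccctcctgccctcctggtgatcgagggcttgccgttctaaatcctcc
Itga3, promoter 2: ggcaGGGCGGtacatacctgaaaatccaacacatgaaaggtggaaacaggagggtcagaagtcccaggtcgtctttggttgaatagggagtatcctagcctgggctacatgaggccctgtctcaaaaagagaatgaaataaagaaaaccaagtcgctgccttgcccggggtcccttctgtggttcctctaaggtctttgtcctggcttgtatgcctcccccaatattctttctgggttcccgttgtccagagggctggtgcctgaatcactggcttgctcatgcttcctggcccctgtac
Itga5: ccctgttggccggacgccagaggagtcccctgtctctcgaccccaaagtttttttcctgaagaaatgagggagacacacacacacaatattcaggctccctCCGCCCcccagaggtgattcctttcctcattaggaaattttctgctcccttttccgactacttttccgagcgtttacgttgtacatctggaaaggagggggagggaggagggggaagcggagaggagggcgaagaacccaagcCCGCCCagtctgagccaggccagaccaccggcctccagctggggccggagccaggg
Itgb6, promoter 1: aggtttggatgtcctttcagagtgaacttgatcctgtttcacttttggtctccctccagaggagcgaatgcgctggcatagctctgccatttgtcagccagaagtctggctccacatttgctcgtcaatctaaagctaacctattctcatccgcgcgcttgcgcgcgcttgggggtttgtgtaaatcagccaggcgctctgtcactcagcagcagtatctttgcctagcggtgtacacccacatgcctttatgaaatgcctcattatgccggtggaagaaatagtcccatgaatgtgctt
Itgb8: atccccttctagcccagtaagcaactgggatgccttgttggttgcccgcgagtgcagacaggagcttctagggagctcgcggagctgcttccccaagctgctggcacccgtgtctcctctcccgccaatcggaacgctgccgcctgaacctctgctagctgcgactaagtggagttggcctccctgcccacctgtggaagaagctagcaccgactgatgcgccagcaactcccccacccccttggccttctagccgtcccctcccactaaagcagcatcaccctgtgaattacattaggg

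GGGCGG, searched on both strands, was found in 7 of the 10 promoters, and in 35.7% of the 32851 promoters of the same length in the table. The 6 matched members that were higher at 30 min (Cd44, Itgb1, Itgav, Itga2, Itga3 and Itga5) each had a match, and the 3 promoters of Itgb6 and Itgb8, which were lower, had none. The GC content was 58.0% for Cd44, 67.3% for Itgb1, 67.3% for Itgav, 59.3% for Itga2 and 58.7% for Itga5. It was 66.7% for the first and 52.3% for the second promoter of Itga3. For Itgb6 it was 50.3% in the printed and 38.3% in the second promoter, and for Itgb8 60.7%. The median over the table was 52.7%. Of the other motifs searched on both strands, TGANTCA (AP-1) was in 1 of the 10 promoters, the second of Itga3, where it began 12 bases after the start base, and in 7.81% of the table. GGAATG (TEAD) was in 1 promoter, that of Itgb1, and in 14.7% of the table. CCAAT (NF-Y) was in 2, those of Itgb8 and the second of Itga3, and in 37.4% of the table. A match describes the letters and is not evidence of binding.

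At 30 min all 9 members differed from sham, 7 higher and 2 lower, and the 4 that passed the DEG threshold were all higher: Itga5 by 6.25-fold, Itga3 by 4.24-fold, Cd44 by 4.23-fold and Itgb1 by 2.16-fold on the log2(FPKM + 1) scale. The 1 FPKM added before the log holds down the fold of a gene near 0 in sham, such as Cd44. As ratios of mean FPKM, the rises were 13.25-fold for Cd44, 10.08-fold for Itga5, 4.74-fold for Itga3 and 2.13-fold for Itgb1. A DEG was a gene that changed by more than 1 on the log2 scale, in either direction, at an adjusted p under 0.05 in limma. By that rule 10.7% of the 18188 genes tested were called at 30 min (5.14% higher), and 52.3% passed by the adjusted p alone (26.9% higher and 25.4% lower). The median log2 fold change was 0.95 for the members and 0.00 for all genes tested. At 28 min the DEGs were Cd44, Itga3 and Itga5, 3 of 9 with a background of 8.48%, and 6 members passed the adjusted p alone, with a background of 48.2%. All comparisons with sham share the same 3 control kidneys.

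At the shorter times Cd44 was the only member called a DEG, from 16 to 26 min. In order of time, 2.25%, 3.06%, 2.51%, 3.29%, 3.12% and 3.77% of all genes were called at these 6 times. By the adjusted p alone, 4 members were called at 16 min, with a background of 19.0%, and 4 at 18 min, with 27.8%. At 20 min 3 were called (22.8%), at 22 min 4 (28.8%), at 24 min 3 (28.3%) and at 26 min 5 (30.1%). Cd44, Itga3 and Itga5 were among them at each of these times, and the only member called lower was Itgb6 at 22 min, when 15.4% of all genes were lower. The 16 min calls rested on the spread shared over the 9 times: a limma fit of the 16 and 0 min kidneys alone called 0 members. By the adjusted p, that fit called 16 of the 18188 genes. Leaving out replicate 2 of 16 min also left 0 members called, whereas leaving out replicate 3 gave 2 DEGs.

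**Figure D1:**
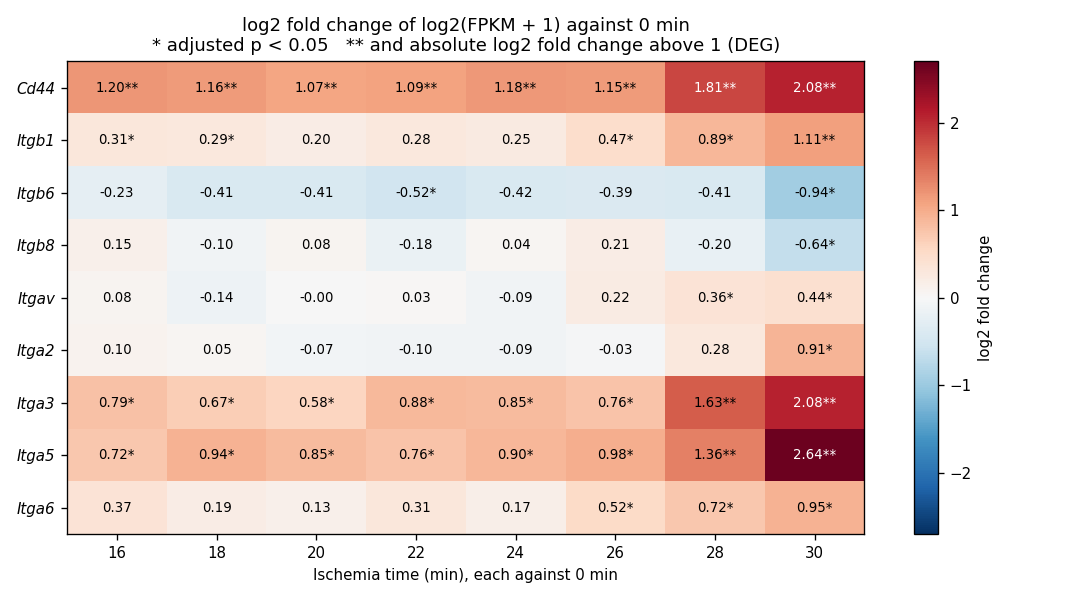
Log2 fold change of log2(FPKM + 1) of each member (rows) at 8 ischemia times against 0 min (columns), from limma over 27 kidneys; 1 star marks an adjusted p under 0.05 and 2 stars a DEG. Cd44 has 2 stars at all 8 times, Itga3 and Itga5 gain them at 28 min and Itgb1 at 30 min, and only Itgb6 and Itgb8 are blue at 30 min.

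Cd44 was near the bottom of the scale in sham kidneys, at 0.43, 0.27 and 0.51 FPKM. It was 2.54, 5.86 and 0.58 FPKM at 16 min, 1.99, 2.40 and 2.58 FPKM at 26 min, 4.13, 4.63 and 3.82 FPKM at 28 min, and 5.50, 4.56 and 5.97 FPKM at 30 min. The sham kidneys were thus below all 24 clamped kidneys, and over the 18 kidneys of 16 to 26 min the lowest, median and highest values were 0.58, 2.39 and 5.86 FPKM. Replicate 3 of 16 min, the kidney with little Havcr1, held the lowest of these values and replicate 2 the highest. The log2 fold change against sham was 1.20 ± 0.30 (SE, n = 3 per group; limma adjusted p = 0.0094) at 16 min and stayed between 1.07 and 1.18 from 18 to 26 min. Without replicate 2 of 16 min it was 0.71 (adjusted p = 0.070), no longer called, and with 1 compared kidney left out it ranged from 0.71 to 1.72. At 28 min it was 1.81 ± 0.30 (adjusted p = 5.6e-05) and at 30 min 2.08 ± 0.30 (adjusted p = 8.3e-06). The call at 20 min was lost without replicate 2 of 0 min (adjusted p = 0.060) or of 20 min (0.085), and that at 22 min without replicate 3 of 22 min (0.052).

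Leukocytes also carry CD44, so their markers are given beside it. The summed FPKM of the 4 leukocyte markers Ptprc, Coro1a, Laptm5 and Lcp1 was 21.7 to 23.9 in sham, 24.2 to 41.9 over the 18 kidneys of 16 to 26 min, 28.0 to 29.6 at 28 min and 17.1 to 34.0 at 30 min. At 16 min replicate 3 had the lowest sum (24.2) and replicate 2 the highest (41.9), as they did for Cd44. Of the 4 markers, 2 were higher than sham at 18 min and 1 at each of 16, 20, 22, 24, 26 and 28 min by the adjusted p, and 1 was lower at 22 min. Ptprc, the pan-leukocyte gene CD45, had a mean of 1.46 ± 0.30 FPKM (SD, n = 3) in sham and 1.25 ± 0.37 FPKM at 30 min, and of the 4 markers it alone passed the test there, as lower by -0.25 (limma adjusted p = 0.043). The 7 neutrophil markers summed to 5.49 to 11.9 in sham and 22.7 to 30.5 at 30 min, with 4 of 7 higher by the adjusted p. Among them Mpo, the myeloperoxidase gene, was at 0 in all 3 kidneys of 30 min. Macrophage markers, 7 genes, summed to 55.9 to 65.3 in sham and 57.1 to 91.6 at 30 min, with 1 higher and 2 lower. Lymphocyte markers, also 7, summed to 1.84 to 4.86 in sham and 0.55 to 0.88 at 30 min, with 0 higher and 3 lower. Of all genes, 26.9% were higher and 25.4% lower at 30 min by the adjusted p. The 8 injured tubule markers, Havcr1 and Lcn2 among them, summed to 247 to 391 in sham and 4711 to 8140 at 30 min, with 7 of 8 higher. The part of these cells in the rise of Cd44 was not tested.

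**Figure D2:**
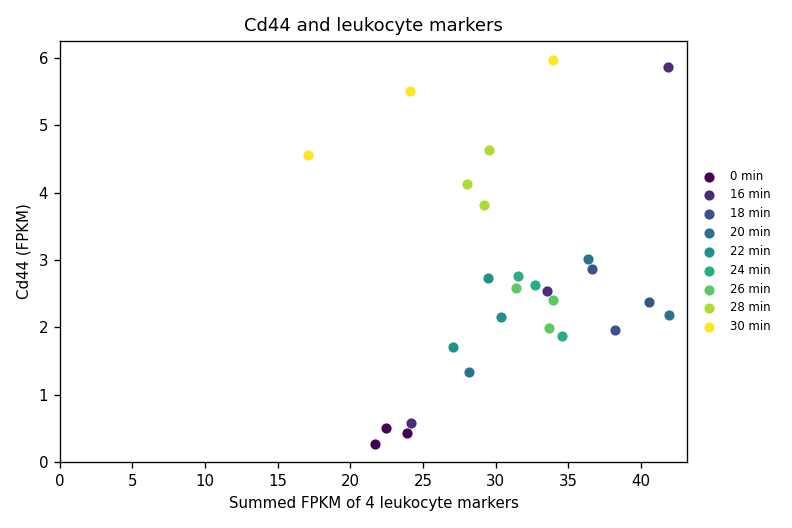
FPKM of Cd44 (vertical axis) against the summed FPKM of 4 leukocyte markers (horizontal axis); each point is 1 of 27 kidneys, coloured by ischemia time. The 30 min kidneys hold 4.56 to 5.97 FPKM of Cd44 at leukocyte sums of 17.1 to 34.0.

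Itgb1, the shared beta chain, was the most abundant member in every kidney, with its highest levels at 28 and 30 min. It was 64.3, 65.8 and 69.3 FPKM in sham, 85.8, 93.6 and 111 FPKM at 26 min, 132, 127 and 126 FPKM at 28 min, and 148, 138 and 138 FPKM at 30 min. In the order of the means, the ranges of 0 min and 20 min, of 26 and 28 min and of 28 and 30 min did not overlap, while those of the neighbours among 16 to 26 min did. The log2 fold change was 0.31 ± 0.11 (limma adjusted p = 0.042) at 16 min, 0.89 ± 0.11 (1e-06) at 28 min and 1.11 ± 0.11 (SE; adjusted p = 3.3e-08) at 30 min. The calls at 16 and 18 min were lost with most kidneys left out, at 16 min without any of the 3 of 0 min or replicate 1 or 2 of 16 min (adjusted p = 0.052 to 0.21) and at 18 min without any of the 6 kidneys compared (0.061 to 0.12).

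Itgb6 and Itgb8, the partners of the alpha v chain that bind latent TGF-beta, were the members that fell. Itgb6 was 33.8, 26.3 and 32.8 FPKM in sham, 18.6, 27.1 and 31.2 FPKM at 28 min and 14.9, 19.7 and 15.8 FPKM at 30 min. Only the range of 30 min was apart from that of the next time in order. Its log2 fold change was between -0.52 and -0.23 from 16 to 28 min. Among these times it passed the threshold on the adjusted p only at 22 min (-0.52, limma adjusted p = 0.033). That call was lost without replicate 1 or 3 of 0 min or 2 or 3 of 22 min (0.086 to 0.11). It was also lost without quantile normalization (0.082) and at a constant FPKM sum (0.074). At 30 min Itgb6 fell by 0.94 ± 0.17 (adjusted p = 0.00013). Without replicate 2 of 0 min or replicate 2 of 30 min it passed the DEG threshold at 30 min (-1.04 and -1.06). Itgb8 was 6.21, 6.51 and 5.43 FPKM in sham, 5.72, 5.50 and 5.90 FPKM at 28 min and 4.31, 2.93 and 4.57 FPKM at 30 min. Its highest value, 11.6 FPKM, was in replicate 3 of 16 min. At 30 min the log2 fold change was -0.64 ± 0.22 (adjusted p = 0.018), and at each time from 16 to 28 min the adjusted p was 0.50 or above. The call at 30 min was lost without replicate 2 of 0 min (adjusted p = 0.061), without replicate 2 of 30 min (0.087) and at a constant FPKM sum (0.051). Tubule markers were lower in the same kidneys: the 8 proximal tubule markers summed to 51271 to 54303 FPKM in sham and 5948 to 8364 FPKM at 30 min, with 7 of 8 lower by the adjusted p. The 6 loop and distal tubule markers summed to 2192 to 2430 FPKM in sham and 815 to 1143 FPKM at 28 min, with 5 of 6 lower, and to 836, 867 and 2950 FPKM at 30 min, with 4 of 6 lower. Their part in the fall of Itgb6 and Itgb8 was not tested.

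The make-up of the beta subunit transcripts moved accordingly. Itgb1 held 46.0% of the summed FPKM of 8 beta genes in sham (44.0% to 47.6%), 63.8% at 28 min and 68.2% at 30 min (66.6% to 70.0%), and in all 24 clamped kidneys its share, 49.0% or more, was above that of every sham kidney. The share of Itgb6 was 21.4% ± 2.1 (SD, n = 3) in sham and 8.12% ± 1.41 at 30 min. Itgb5, which pairs with the alpha v chain and is not a member, held 26.0% in sham and 15.9% at 30 min. The summed beta FPKM were 145 ± 5.84 in sham and 207 ± 4.48 at 30 min, so the share of Itgb6 fell with its own FPKM and with the larger sum. FPKM of Itgb6 per FPKM of Itgb1 was 0.4001 to 0.526 in sham and 0.1005 to 0.378 in the 24 clamped kidneys. The log2 ratio differed by -1.98 between 30 min and sham (exact permutation test, two-sided, p = 0.1, the smallest that 3 kidneys against 3 allow).

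**Figure D3:**
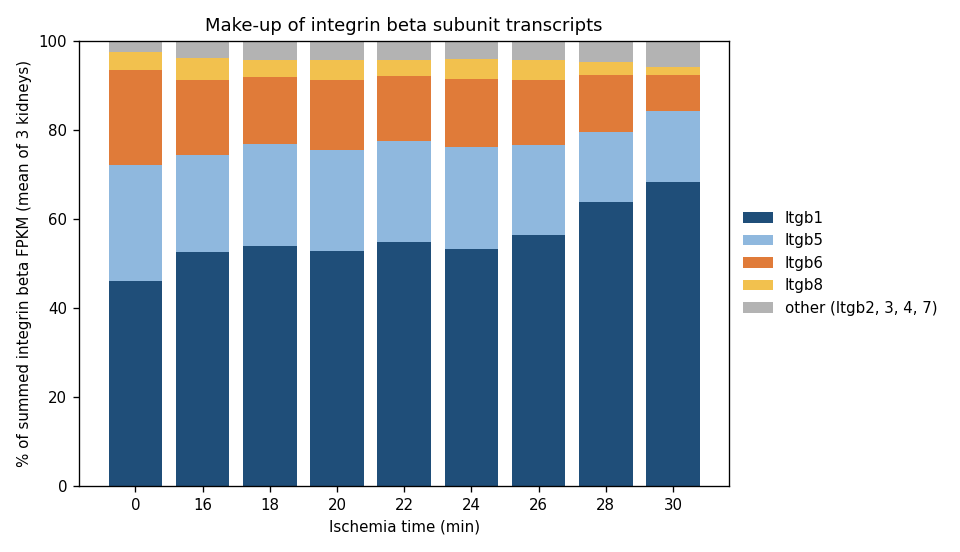
Mean share, in percent of the summed FPKM of 8 integrin beta genes, held by each gene at the 9 ischemia times (3 kidneys each). The bars of Itgb1 grow from 46.0% at 0 min to 68.2% at 30 min, and those of Itgb6 shrink from 21.4% to 8.12%.

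The alpha chains of receptors for RGD ligands, Itgav and Itga5, moved by very different amounts. Itga5, the alpha chain of the fibronectin receptor, was 2.09, 1.73 and 2.58 FPKM in sham, 5.45, 6.64 and 5.38 FPKM at 26 min, 8.50, 7.76 and 7.27 FPKM at 28 min, and 13.1, 19.1 and 32.3 FPKM at 30 min. The sham kidneys were below all others, and the 30 min kidneys were above all others with the widest spread. Its log2 fold change was 0.72 ± 0.23 (limma adjusted p = 0.035) at 16 min, between 0.76 and 0.98 from 18 to 26 min, 1.36 ± 0.23 (6.5e-05) at 28 min and 2.64 ± 0.23 (adjusted p = 1.2e-08) at 30 min. At 18 and 26 min it passed the DEG threshold without replicate 3 of 0 min (1.03 and 1.07), and at 20 min without replicate 3 of 20 min (1.02). Its call was lost at 16 min without replicate 1 or 2 of 0 min or of 16 min (adjusted p = 0.079 to 0.21), at 20 min without replicate 2 of 0 min or replicate 1 or 2 of 20 min (0.051 to 0.060), and at 22 min without replicate 2 of 0 min (0.073) or 3 of 22 min (0.061). Itgav was 17.6, 19.0 and 18.1 FPKM in sham, 25.5, 26.99 and 26.1 FPKM at 28 min and 25.6, 24.5 and 29.9 FPKM at 30 min. It was higher by 0.44 ± 0.11 (adjusted p = 0.0027) at 30 min and did not pass the test from 16 to 26 min. Of its 10744 exon bases, 5.9% overlap Gm13684, a transcript on the other strand. FPKM of Itga5 per FPKM of Itgav had a mean of 0.117 in sham and 0.790 at 30 min, a difference of 2.71 in the log2 ratio (exact permutation test, two-sided, p = 0.1, again the smallest possible).

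Replicate 3 of 30 min, which held the most Itga5, also differed in other cell markers. Its fibroblast and pericyte markers summed to 285 FPKM against 130 and 85.9 in replicates 1 and 2, its endothelium markers to 237 against 135 and 192, and Umod was 2034 FPKM against 463 and 454. Over the 3 kidneys of 30 min, 3 of 6 endothelium markers and 4 of 6 fibroblast and pericyte markers were higher than sham by the adjusted p, and 1 of the latter was lower. The part of these cells in the value of Itga5 was not tested.

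Itga2, whose product binds collagen with the beta 1 chain, was the rarest member. It was 0.08, 0.10 and 0.48 FPKM in sham, 0.63, 0.42 and 0.39 FPKM at 28 min and 1.59, 1.27 and 1.11 FPKM at 30 min, and in the 18 kidneys of 16 to 26 min it lay between 0.12 and 0.70 FPKM. The 3 kidneys of 30 min were therefore above the other 24. At 30 min the log2 fold change was 0.91 ± 0.13 (limma adjusted p = 6.1e-06). The pseudocount of 1 FPKM holds this value down: with 0.1 FPKM it was 2.24 (adjusted p = 9.9e-05), and without sham replicate 3 or replicate 3 of 30 min it passed the DEG threshold (1.08 and 1.002). Platelets also carry Itga2, and their 5 markers summed to 2.93 to 3.39 FPKM in sham and 12.6 to 21.2 FPKM at 30 min. Of these, 2 of 5 were higher by the adjusted p, Pf4 by 2.71 and Ppbp by 1.56, and Itga2b was lower by -0.23. The part of platelets in the value of Itga2 was not tested.

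The laminin-binding alpha chains, Itga3 and Itga6, both rose, Itga3 by more. Itga3 was 11.1, 10.98 and 12.3 FPKM in sham, 26.1, 30.0 and 13.7 FPKM at 16 min, 20.3, 18.9 and 27.5 FPKM at 26 min, 40.8, 43.0 and 39.9 FPKM at 28 min, and 52.3, 52.2 and 58.5 FPKM at 30 min. The values formed 4 ranges that did not overlap, sham, 16 to 26 min, 28 min and 30 min. The log2 fold change was 0.79 ± 0.20 (limma adjusted p = 0.0081) at 16 min, 1.63 ± 0.20 (1.2e-06) at 28 min and 2.08 ± 0.20 (adjusted p = 2.8e-08) at 30 min. Without replicate 3 of 16 min it passed the DEG threshold at 16 min (1.09), and without replicate 2 it lost its call there (0.59, adjusted p = 0.068). Its call was also lost at 18 min without replicate 1 or 3 of 18 min (0.064 for both) or 2 of 0 min (0.050), and at 20 min without any of the 6 kidneys compared (0.058 to 0.12). Itga6 was 22.5, 20.7 and 23.3 FPKM in sham, 29.6, 35.5 and 38.5 FPKM at 26 min, 42.1, 40.1 and 38.7 FPKM at 28 min and 46.6, 41.2 and 46.6 FPKM at 30 min. It was higher by 0.52 ± 0.16 (adjusted p = 0.015; 0.059 without replicate 2 of 0 min and 0.070 without replicate 3 of 26 min) at 26 min and by 0.95 ± 0.16 (adjusted p = 3.2e-05) at 30 min. Without replicate 2 of 30 min that change passed the DEG threshold (1.02). Itga3 per Itga6 had a mean of 0.518 in sham, 1.02 at 28 min and 1.21 at 30 min, so that the less abundant laminin chain of sham kidneys became the more abundant one at 30 min. The log2 ratio differed by 1.23 between 30 min and sham (exact permutation test, two-sided, p = 0.1), and 9 such ratio comparisons were computed. The summed FPKM of 18 alpha genes were 73.3 ± 2.39 in sham and 172 ± 20.6 at 30 min, of which Itga3 held 15.6% and 31.7%.

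**Figure D4:**
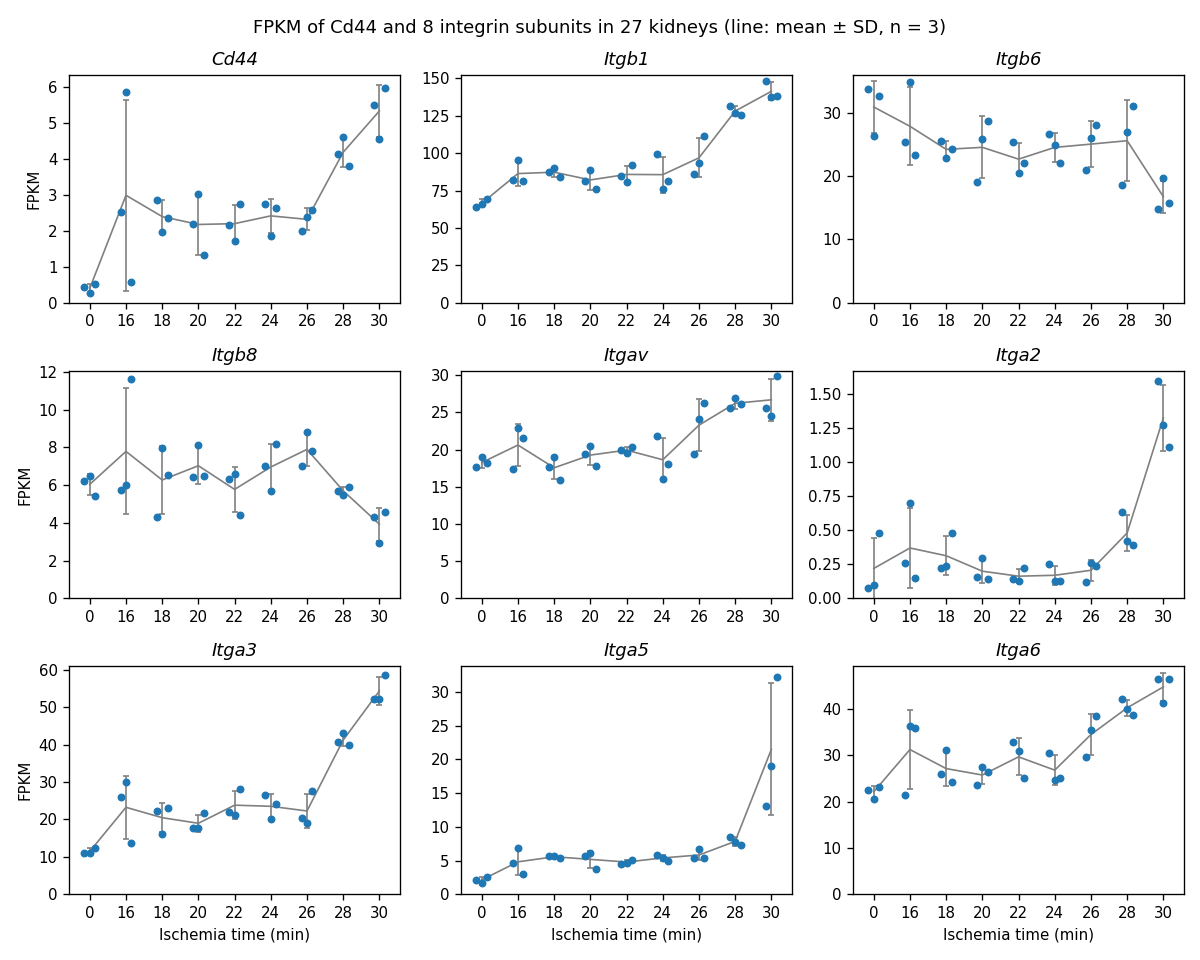
FPKM of each member in the 27 kidneys (points) by ischemia time, with the mean ± SD of 3 kidneys (line and bars); each panel has its own axis from 0. Itgb1, Itga3 and Itga5 stand highest at 28 and 30 min, Cd44 leaves the sham level at 16 min, and Itgb6 and Itgb8 have their lowest values at 30 min.

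The step from 26 to 28 min was tested on its own. Itga3 rose by 0.87 (95% interval 0.46 to 1.27; limma adjusted p = 0.0041) and Itgb1 by 0.42 (0.20 to 0.63; adjusted p = 0.0089), 2 of 9 members against 19.3% of all genes. No member passed the DEG threshold, which 1.50% of all genes passed. At an unadjusted p under 0.05 were 4 of 9 members and 5635 of the 18188 genes. Without replicate 3 of 26 min Itga3 passed the DEG threshold (1.02), and without replicate 1 of 26 min Itgb1 lost its call by adjusted p (0.063). A limma fit of only the 26 and 28 min kidneys also left Itgb1 uncalled (adjusted p = 0.075). That fit called Cd44, Itga5 and Itgb8 in addition to Itga3, with Itgb8 lower. Cd44 had a log2 fold change of 0.66 (0.02 to 1.29; adjusted p = 0.14) in this step.

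From 28 to 30 min Itga5 rose by 1.29 (95% interval 0.80 to 1.77; limma adjusted p = 0.0016), the only DEG among the members with a background of 1.05%, and Itga2 by 0.63 (0.36 to 0.90; adjusted p = 0.0038). Both together are 2 of 9 members, against 13.2% of all genes by the adjusted p. The rise of Itga5 leaned on replicate 3 of 30 min: without it the log2 fold change was 0.94 (adjusted p = 0.0096), under the DEG threshold. In a limma fit of only the 28 and 30 min kidneys the adjusted p was 0.12 for Itga5 and 0.084 for Itga2. In that fit 0 of the 18188 genes passed, so the loss was not particular to these members. Itgb6 had a log2 fold change of -0.53 (-0.89 to -0.16; adjusted p = 0.052), and it was called without replicate 1 of 28 min (0.013) or 2 of 30 min (0.041).

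**Figure D5:**
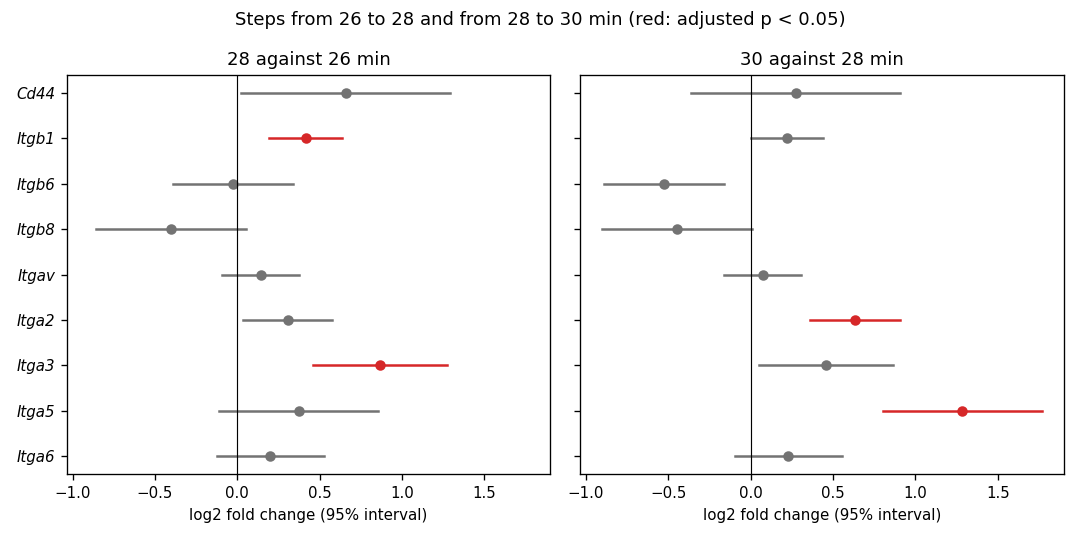
Log2 fold change (points) with its 95% interval (lines) of the 9 members from 26 to 28 min (left) and from 28 to 30 min (right), from limma; red marks an adjusted p under 0.05. Itgb1 and Itga3 are red on the left, Itga2 and Itga5 on the right.

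Between 16 and 26 min no member was called. The adjusted p of 26 against 16 min was 0.68 or above for all 9 members and their slopes over these times lay between -0.02 and 0.02 log2 units per min. In limma 0 of the members were called in 26 against 16 min, and 0 had an unadjusted p under 0.05. All genes together gave 0 calls there (0.00%), with 1717 at an unadjusted p under 0.05, and for the slope 2 genes were called (0.0110%). Between neighbouring times from 16 to 26 min 0 members were called (background 0.00%). In 26 against 24 min 3 members had an unadjusted p under 0.05, as did 1100 of the 18188 genes. The interval for Cd44 in 26 against 16 min ran from -0.68 to 0.59, and that for Itga3 from -0.44 to 0.38.

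Other genes of the pathway were read from lists of subunits, ligands, adaptors and partners. Of 18 other integrin subunits, 5 were higher and 5 lower by the adjusted p at 30 min, near the 26.9% and 25.4% of all genes, and 3 of them were DEGs. Itgb4, the partner of the alpha 6 chain in hemidesmosomes, rose by 1.65, Itgam, an alpha chain of myeloid cells, by 1.34 and Itgb3 by 1.07 on the log2 scale. The leukocyte chain Itgb2 rose by 0.59 (limma adjusted p = 0.041), while Itgal (-0.08, adjusted p = 0.59) and Itgax (-0.26, adjusted p = 0.21) did not pass. Itgam was 1.67, 1.56 and 5.07 FPKM in the 30 min kidneys, again highest in replicate 3.

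Most integrin ligands were higher at 30 min. Of 23 ligands tested at 30 min, 16 were higher and 3 lower by the adjusted p (26.9% and 25.4% of all genes), 13 of them DEGs, all higher, and their median log2 fold change was 1.23, against 0.00 for all genes. Spp1, the RGD protein osteopontin, rose by 4.21 (limma adjusted p = 6.8e-07), from 1204 to 18151 FPKM in the means of sham and 30 min. The matricellular genes Ccn1 and Ccn2 rose by 3.37 and 2.82 and Tnc by 2.80. Among the laminin chains, ligands of the products of Itga3 and Itga6, Lamb3 rose by 1.67, whereas Lama3 was lower by -0.76 (adjusted p = 9e-05).

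Of 24 adaptors inside the cell, 18 were higher and 1 lower by the adjusted p, where 26.9% of all genes were higher and 25.4% lower. The actin crosslinkers Actn1 and Flna rose by 2.72 and 2.63 and Zyx by 1.48, and the 1 that fell was Tln2, a talin (-1.56). Of 10 membrane partners, 5 were higher and 1 lower, against the same shares of all genes. Plaur, the urokinase receptor, rose by 3.45, the syndecan Sdc1 by 2.18 and the tetraspanins Cd151 and Cd9 by 1.60 and 1.34. Of 20 genes of hyaluronan and CD44 partners, 7 were higher and 5 lower, close to those shares, with Mmp14 (1.67) and Msn (1.36), which codes for moesin, among those higher. Cd74, the invariant chain and a CD44 partner, fell from 640 to 37.6 FPKM in the means, a log2 fold change of -4.33 (limma adjusted p = 3.6e-09).

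The genes whose values ran most like those of each member were ranked over 27 kidneys, as a description without a test, among 12346 genes with a mean of 1 FPKM or more. The kidneys share the ischemia times, so any genes that change with time correlate. Itgb1 ran closest to Cd2ap, an adaptor of the podocyte slit diaphragm (Pearson r = 0.983), and then to Hprt and Ywhaq. The 5 podocyte markers summed to 45.1 to 63.5 FPKM in sham and 77.6 to 135 FPKM at 30 min, with 3 of 5 higher by the adjusted p, and their part in the values of Itgb1 and Itga3 was not tested. Itga3 ran with Akt1 (r = 0.973) and Cldn4 (r = 0.971). Itga5 ran closest to Mcam, an adhesion molecule of endothelium and pericytes (r = 0.970), followed by 2410002F23Rik and Emp2. Cd44 ran with Pdlim7 (r = 0.969), Trim47 and Ywhah. Itgav ran with Csnk1a1, Dhx9 and Actr2 (r = 0.922 for the first) and Itga6 with Pak2 (r = 0.934), Mtpn and Syncrip. Itga2 ran with Endod1 (r = 0.914), Ppbp, a platelet gene, and Npepps. Itgb8 ran with Birc6 (r = 0.886), Lmbrd2 and Gfm1, and Itgb6 had the loosest neighbours, Eps8 (r = 0.812), Dleu7 and Lyrm4.

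In position, the members were not neighbours. By the GENCODE M21 annotation of GRCm38, Cd44, Itgb6, Itgav and Itga6 lie on chromosome 2, at chr2:102811141-102901665, chr2:60598292-60722643, chr2:83724397-83806916 and chr2:71745616-71858416. Itgb1 lies at chr8:128685654-128733200, Itgb8 at chr12:119158022-119238802, Itga2 at chr13:114833081-114932100, Itga3 at chr11:95044474-95076801 and Itga5 at chr15:103344286-103366763.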

How the data were processed

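RNA of the left kidneys of 27 mice was sequenced on a DNBSEQ platform. The authors deposited FPKM per gene symbol and kidney, rounded to 2 decimals and called RPKM in the paper. Per the labels, the processing used Bowtie2, RSEM, DESeq2 and GRCm38.p6; versions, annotation and filters are not given in the sources used here. The quantile normalization and log2 step of the study are not in the values. log2(FPKM + 1), quantile normalized, was fitted in limma 3.58.1 (R 4.3.3) with 1 mean per ischemia time, for 18188 genes above 0 FPKM in 3 or more kidneys. p-values were two-sided and adjusted by Benjamini-Hochberg over all genes tested. Intervals cover the spread between kidneys. Steps were tested on simulated data. Replicate numbers did not pair kidneys (mean correlation of same-numbered deviations 0.009).

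The members and lists were chosen with earlier results of these data known. Named genes were the members, the 3 genes most correlated with each, and up to 4 of the largest DEGs at 30 min per list plus the leukocyte integrins. Lamb3, Lama3, Itgal and Itgax were given beside them. Some items are not reported here. The fit was repeated with 0.1 FPKM as pseudocount, without quantile normalization, at a constant FPKM sum, under other filters, on the compared groups alone, with a trended eBayes, with a replicate block and without each kidney in turn. Promoters were read from RefSeq, and figures drawn with matplotlib 3.10.9 under Python 3.11.15.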

Additional observations from a re-analysis of the deposited data

How the results depend on the processing

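The 4 DEGs at 30 min and the 3 at 28 min stood in number under every alternative within 1.5 times, whereas counts at shorter times and in the late steps moved. With a fit of only the groups compared, the DEG count was 0 at 16 min and 0 in 30 against 28 min. The count by adjusted p was 0 in both, and 4 members passed in 28 against 26 min. In that step Itgb1 lost its call (adjusted p = 0.075). Cd44 (0.015), Itga5 (0.049) and Itgb8 (0.034, with a log2 fold change of -0.404) gained one. Of the 18188 genes, that fit called 8 DEGs at 16 min and 0 in 30 against 28 min. By the adjusted p it called 16 and 0 genes there, and 3254 in 28 against 26 min. A pseudocount of 0.1 FPKM gave 2 DEGs at 18, 20, 24 and 26 min and 2 in 30 against 28 min. Among all 18188 genes it called, in that order, 1077, 926, 1109, 1318 and 425 DEGs. No quantile normalization gave 2 at 18, 24 and 26 min, where it called 606, 626 and 750 of all genes. A constant sum gave 2 at 18, 20, 22, 24 and 26 min, where it called 740, 650, 805, 801 and 951 of all genes. A filter of 1 FPKM or more in 3 or more kidneys gave 0 at 20, 22 and 26 min, where it called 437, 579 and 665 of 12929 genes. The cause was not tested.

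Leaving out 1 kidney at a time, DEGs ranged from 0 to 2 at 16 min, 1 to 2 at 18 min, 0 to 2 at 20 min, 0 to 1 at 22 min, 1 to 2 at 26 min, 0 to 1 in 28 against 26 min and 0 to 1 in 30 against 28 min. Members by adjusted p ranged from 0 to 4 at 16 min, 2 to 3 at 18 min, 0 to 2 at 20 min, 1 to 4 at 22 min and 1 to 2 in 28 against 26 min. The kidneys that moved a count by over 1.5 times were all 3 of 0 min, replicates 2 and 3 of 16 min, 1 and 3 of 18 min, all 3 of 20 min, 3 of 22 min, 1 and 3 of 26 min and 3 of 30 min.

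None of the reversed values had passed the test. The slope of Cd44 was 0.007 with a pseudocount of 0.1 FPKM, 0.005 at a constant sum and -0.039 to 0.033 with 1 kidney left out. Itgb6 in 28 against 26 min was 0.009 without quantile normalization and -0.172 to 0.174 with 1 kidney left out. Itgb8 at 18 min was 0.017 without quantile normalization, and with 1 kidney left out it was -0.170 to 0.313 at 16 min, -0.273 to 0.114 at 18 min, -0.017 to 0.144 at 20 min and -0.064 to 0.160 at 24 min, with a slope of -0.005 to 0.029. Itgav was 0.072 without quantile normalization and 0.066 at a constant sum at 20 min, and 0.018 under both at 24 min; with 1 kidney left out it was -0.039 to 0.044, -0.196 to 0.006 and, in 30 against 28 min, -0.020 to 0.127. Itga2 was -0.056 at 16 min and -0.184 at 18 min with the stricter filter, and 0.025 with a pseudocount of 0.1 FPKM and 0.020 at a constant sum at 26 min. With 1 kidney left out it was -0.040 to 0.270 at 16 min, -0.047 to 0.214 at 18 min, -0.162 to 0.099 at 20 min, -0.198 to 0.063 at 22 min, -0.183 to 0.078 at 24 min and -0.126 to 0.135 at 26 min. Slopes with 1 kidney left out were -0.012 to 0.024 for Itga3, 0.000 to 0.032 for Itga5 and -0.006 to 0.022 for Itga6.

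With the replicate block, Itgb1 lost its call by adjusted p at 16 min (0.056) and at 18 min (0.059), so that 3 members passed at each in place of 4. No DEG call of a member and no other call by adjusted p changed with the block. The numbers did not pair the kidneys: same-numbered deviations had correlations of -0.416 to 0.480, and 10 of 27 kidneys were closest to their own number. Rescaling moved the median of all genes by at most 0.075. Depth is unknown, so the counting error of low genes such as Itga2 and sham Cd44 could not be estimated.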
